A study of Mus musculus with 12 samples.

Results

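Peg3, Snrpn, Mest, Impact and Airn are mouse genes known to be expressed mainly from the copy inherited from the father, and their expression was followed here allele by allele in clonal cell lines. The genes were chosen by name, as the rows of the allelic expression table that carry 1 of these 5 symbols, and all 5 were found among 14899 rows. The cells came from hybrid mouse embryonic stem (ES) lines of the strains 129Sv and Cast/EiJ, in which sequence differences tell the 129 copy of a gene from the Cast copy. The ES line F1-21.6 is XX and the ES line F1-23 is XY, each with 1 library, and they were grown with leukaemia inhibitory factor on feeder fibroblasts that no longer divide. Neural progenitor cells (NPC), a dividing neural cell type, were made from each ES line and grown as clonal lines. The XX line gave clones 129, C2, G4 and E1.2, the XY line gave clones mC3, mE6, mB4 and mG3, and there was 1 library of polyadenylated RNA per clone. The name of clone 129 is not that of the 129 allele. Replicates are clones, and no further genotype or treatment differs between them in the labels. The XX clones carry another library name prefix than the XY clones and ES lines, so line, sex chromosomes and library set cannot be told apart among clones. In the XX line, the step from ES to NPC coincides with library set as well.

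Imprinted genes are marked differently in egg and sperm, most often by DNA methylation of a control region, and the mark decides which parental copy is transcribed. The mark is copied at each cell division by the maintenance DNA methyltransferase and protected by zinc finger proteins such as ZFP57. Loss of the mark on the silent copy of a paternally expressed gene leaves both copies active, and gain of it on the active copy silences the gene. The direction of the cross was not taken from the labels. In the XY ES line and all 4 XY clones the median X-linked gene had a 129 share of 100%, and a male receives his X chromosome from his mother. In the XY cells the Cast allele is therefore the paternal copy. The XX ES line had a median X-linked share of 51.3%, and the cross that gave it is not stated in the sources used here.

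The 5 genes lie on 4 chromosomes. Coordinates are those of the deposited table, build mm9, with starts counted from 1. Peg3, which encodes a large zinc finger protein, lies at chr7:6656608-6683163. Snrpn, which encodes a spliceosome protein and shares its row with the upstream reading frame Snurf, lies at chr7:67127387-67285105. Mest, which encodes a hydrolase-like enzyme, lies at chr6:30683506-30698466. Impact encodes an inhibitor of the kinase GCN2. Airn, a long noncoding RNA that runs antisense to the maternally expressed receptor gene Igf2r, lies at chr17:12933983-13052750.

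The start regions of Peg3 and Mest are printed because these genes share the clones in which they used the Cast allele alone and the XY clone in which they used both. Each is the 250 bases before the start of a transcript in RefSeq, 5′ to 3′ on the gene's own strand, found by exact match in the mouse build NCBIM37 (mm9). The Peg3 window is chr7:6683131-6683380 on the minus strand, and the Mest window is chr6:30687800-30688049 on the plus strand. Capitals mark the dinucleotide CG, the site at which DNA methylation is placed.
Peg3: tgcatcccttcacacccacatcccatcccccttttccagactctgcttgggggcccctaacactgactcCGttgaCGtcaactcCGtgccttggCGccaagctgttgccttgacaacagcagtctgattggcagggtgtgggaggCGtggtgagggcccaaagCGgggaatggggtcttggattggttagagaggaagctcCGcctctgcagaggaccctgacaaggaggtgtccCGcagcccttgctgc
Mest: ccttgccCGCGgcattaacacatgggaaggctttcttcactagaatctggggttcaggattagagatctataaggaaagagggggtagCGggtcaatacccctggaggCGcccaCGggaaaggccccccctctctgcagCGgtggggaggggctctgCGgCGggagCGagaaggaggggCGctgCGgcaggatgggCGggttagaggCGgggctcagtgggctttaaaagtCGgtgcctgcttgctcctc
The Mest window held 14 CG and the Peg3 window 8, against a median of 6 in 32851 promoter windows of this length. At least 14 CG were found in 29.4% of those windows and at least 8 in 43.0%. The window of Snrpn, chr7:67285112-67285361, held 3 CG and that of Airn 2. Snrpn had 4 starts among the promoter windows and Mest 3, and only a single window per gene was described. The motif TGCCGC, the hexamer that ZFP57 recognises, was searched on both strands and occurred 2 times in the Mest window. It occurred in none of the windows of Peg3, Snrpn and Airn, and in 8.68% of all promoter windows. The control regions of imprinted genes can lie outside such windows, and no methylation was measured in these libraries.

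For every gene and library the table gives the counts informative for the allele and the share of them from the 129 allele, called the 129 share here. A gene was called monoallelic in a library with at least 20 counts, a major allele of at least 85% and an exact binomial test against equal use below an adjusted p of 0.05, and biallelic with a major allele of at most 70%. Levels are given as CPM, the counts of a gene scaled to the size of the library. Total counts ran from 61375911 to 119266777 per library. Each clone expressed all 7 listed neural progenitor markers, with a summed level of 3228 to 6659 CPM against 423 and 451 in the ES lines. Esrrb, the single ES marker found in the table of 6 listed, had 643 and 529 CPM in the ES lines and 1.28 to 4.46 in the clones.

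The 5 genes gave 17 monoallelic calls in the 40 pairs of gene and NPC clone, and the share over all autosomal genes was 6.79% of pairs. By library, 4 of the 5 genes were monoallelic in mC3, 5 in mE6, 2 in mB4 and 3 in mG3, in each case for the Cast allele. The share of all autosomal genes called for Cast in the same libraries was 3.52%, 3.69%, 2.87% and 3.35%. Among the XX clones, clone 129 had 2 calls, Snrpn for Cast and Airn for 129, and C2 had 1 call, Mest for 129. G4 and E1.2 had none. The percentages called for either allele were 8.37%, 6.72%, 6.99% and 6.69%, in the order 129, C2, G4 and E1.2. In the XY ES line 3 of the 5 genes were monoallelic for Cast, where 2.09% of genes were, and in the XX ES line none was, where 5.87% of genes were called for either allele. Clone mE6 was the only one of the 8 clones in which all 5 genes used the Cast allele alone.

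**Figure D1:**
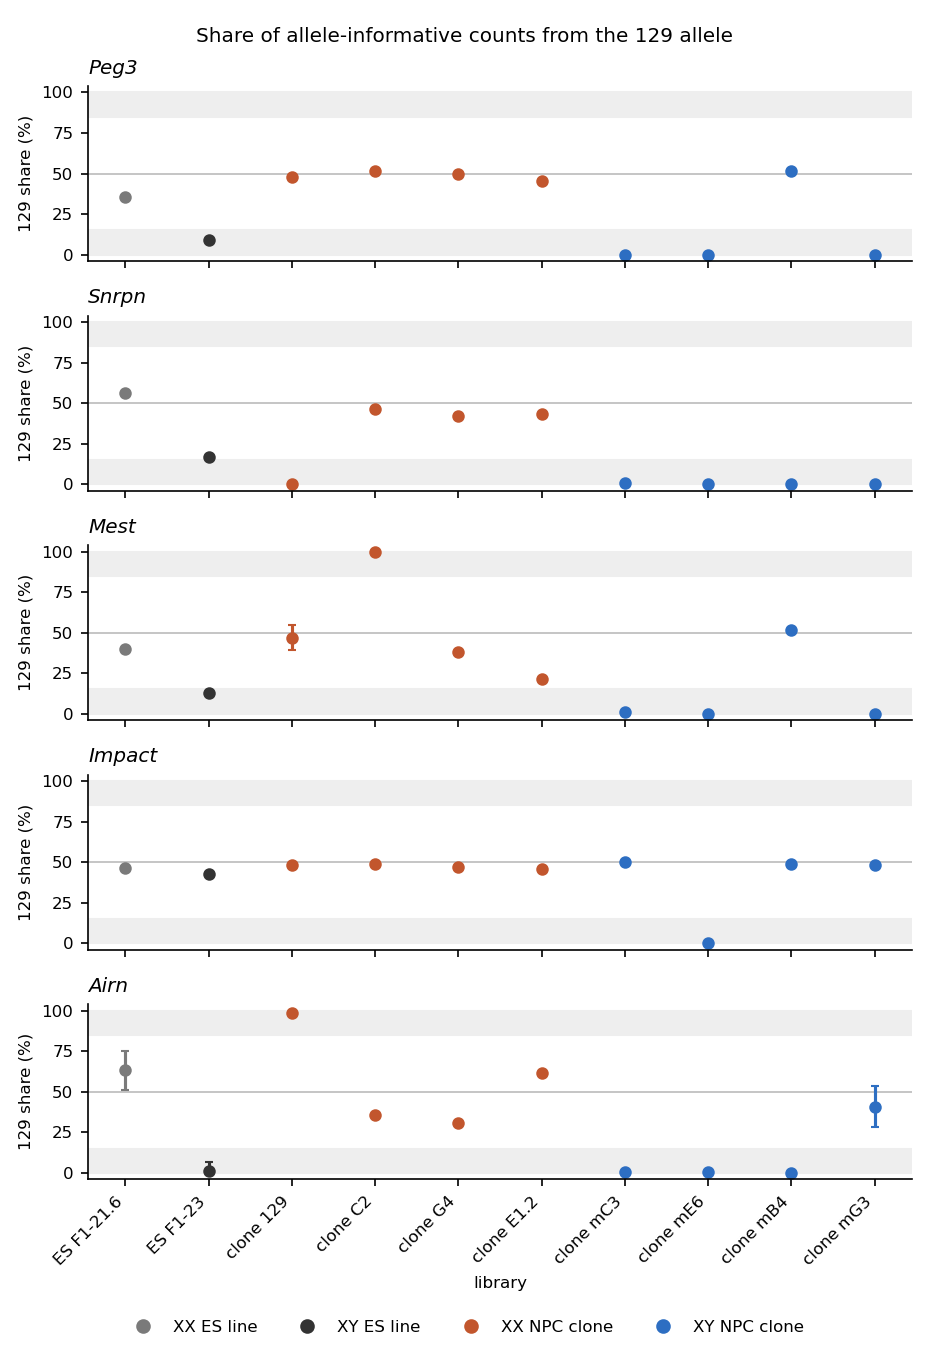
The 129 share (percent, vertical axis) of each gene in the 2 ES lines and 8 NPC clones (horizontal axis), with exact 95% Clopper-Pearson intervals that cover counting error only. Grey bands mark shares at which the major allele reaches 85%. The XY clones sit near 0 for most genes. The exceptions are Peg3 and Mest of mB4 and Impact of mC3, mB4 and mG3, all near 50%, and Airn of mG3 at 40.6%.

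Peg3 was read at great depth, with 19241 to 107873 counts per clone. Its 129 share was 47.6% in clone 129 and 51.6%, 49.9% and 45.7% in its sisters C2, G4 and E1.2. In the XY clones it was 0.00853% in mC3, 0.0830% in mE6, 51.9% in mB4 and 0.0156% in mG3. All 4 XX clones and mB4 thus used both alleles almost equally, while in the other 3 XY clones only 2, 24 and 3 counts came from the 129 allele. The ES lines had shares of 35.7% (XX) and 9.05% (XY), so a minor 129 signal was present in the XY ES library. The part of feeder RNA in that signal was not tested. The Cast allele alone gave 242, 435, 549 and 447 CPM in clones 129, C2, G4 and E1.2. It gave 261, 358, 292 and 220 CPM in mC3, mE6, mB4 and mG3. The 129 allele added 220, 465, 547 and 377 CPM in the XX clones and 315 CPM in mB4, and at most 0.297 CPM in mC3, mE6 and mG3. Total Peg3 was 462, 900, 1096 and 824 CPM in the XX clones and 261, 358, 607 and 220 CPM in the XY clones, and the groups overlapped through clone 129 and mB4.

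Snrpn had 1075 to 4385 counts per clone. Its 129 share was 0.0930% in clone 129, and 46.3%, 42.1% and 43.0% in its sisters C2, G4 and E1.2. It was 0.670%, 0.0633%, 0.0673% and 0.0734% in mC3, mE6, mB4 and mG3. Snrpn was thus the member for which all 4 XY clones used Cast alone, and clone 129 sat among them, so that the groups overlapped. In clone mB4, where Peg3 was biallelic, 1 of 1486 Snrpn counts came from the 129 allele, with a 95% interval of 0.00170% to 0.374%. The ES lines had shares of 56.5% (XX) and 16.6% (XY). The Cast allele gave a narrow range over all 8 clones, from 15.6 CPM in mG3 to 23.1 CPM in mC3. The 129 allele gave 15.9, 15.6 and 16.7 CPM in C2, G4 and E1.2 and at most 0.156 CPM in the other 5 clones. Total Snrpn was 15.9, 34.3, 37.0 and 38.7 CPM in the XX clones and 23.2, 19.6, 21.4 and 15.6 CPM in the XY clones.

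Mest showed the widest range of allele use and of level. Its 129 share was 99.7% in C2, 47.0% in clone 129, 38.3% in G4 and 21.3% in E1.2. It was 1.10%, 0.110%, 51.8% and 0.132% in mC3, mE6, mB4 and mG3. C2 was the only clone in which Mest came from the 129 allele alone, and the share of E1.2 lay between the limits for monoallelic and biallelic calls. The ES lines had shares of 39.7% (XX) and 13.1% (XY). Total Mest was 2.68, 503, 1340 and 432 CPM in the XX clones and 667, 553, 728 and 660 CPM in the XY clones. Clone 129 was nearly silent, with 181 counts, and the 95% interval of its share ran from 39.5% to 54.5%. The Cast allele gave 1.46 CPM in C2, where the 129 allele gave 502 CPM, and in mB4 the alleles gave 351 CPM (Cast) and 377 CPM (129). In G4, the clone with the highest total, they gave 826 and 514 CPM. In E1.2 they gave 340 and 92.3 CPM. The summed level of 3 astrocyte markers was 226 CPM in E1.2 and 1.397 to 26.0 CPM in the other clones, that of 3 neuron markers was 278 CPM against 14.4 to 130 CPM, and that of 6 fibroblast markers was 47.2 CPM against 0.882 to 5.92 CPM. The median X-linked gene had a 129 share of 88.6% for E1.2, 6.61% for G4, 0.115% for C2 and 0.0% for clone 129. Whether other cells in E1.2 or G4 had a part in their shares of Mest or of the other genes was not tested.

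Impact, at chr18:13130761-13151457, was the most uniform of the 5 genes in allele use, apart from a single clone. Its 129 share was 48.6%, 49.2%, 47.0% and 45.8% in clones 129, C2, G4 and E1.2. It was 50.05%, 0.0248%, 49.0% and 48.4% in mC3, mE6, mB4 and mG3. Both ES lines were biallelic, at 46.6% (XX) and 43.0% (XY). Clone mE6 was thus the only library of the 10 in which Impact was monoallelic, with 1 count of 4040 from the 129 allele and an upper 95% limit of 0.138%. Total Impact was 91.9, 67.6, 97.9 and 71.7 CPM in the XX clones and 69.3, 49.995, 81.9 and 87.7 CPM in the XY clones. The total of mE6 was the lowest, while its Cast level of 49.98 CPM lay within the 34.4 to 51.9 CPM that the Cast allele gave in the other 7 clones.

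The row of Airn, the noncoding RNA, had enough counts in these libraries of polyadenylated RNA to be read in most clones. Its 129 share was 30.4% in G4, 35.4% in C2, 61.7% in E1.2 and 98.8% in clone 129. It was 0.251%, 0.728%, 0.0462% and 40.6% in mC3, mE6, mB4 and mG3. Total Airn was 166, 213, 132 and 195 CPM in the XX clones and 79.8, 52.7, 62.2 and 0.733 CPM in the XY clones. All XX clones had more than all XY clones, but edgeR did not call the difference (adjusted p 0.280). The share of all genes with totals that do not overlap was not counted. Clone mG3 was nearly silent with 64 counts, as were the ES lines with 66 (XX) and 79 (XY). The share of mG3 therefore has an interval of 28.5% to 53.6%, and those of the ES lines were 63.6% (50.9% to 75.1%) and 1.27% (0.0320% to 6.85%). The row of Airn overlaps that of Igf2r by 62468 bases and that of Mas1 by 19319, and no source used here states that reads were counted by strand. Part of the Airn counts can thus be reads of Igf2r or Mas1, and the converse.

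**Figure D2:**
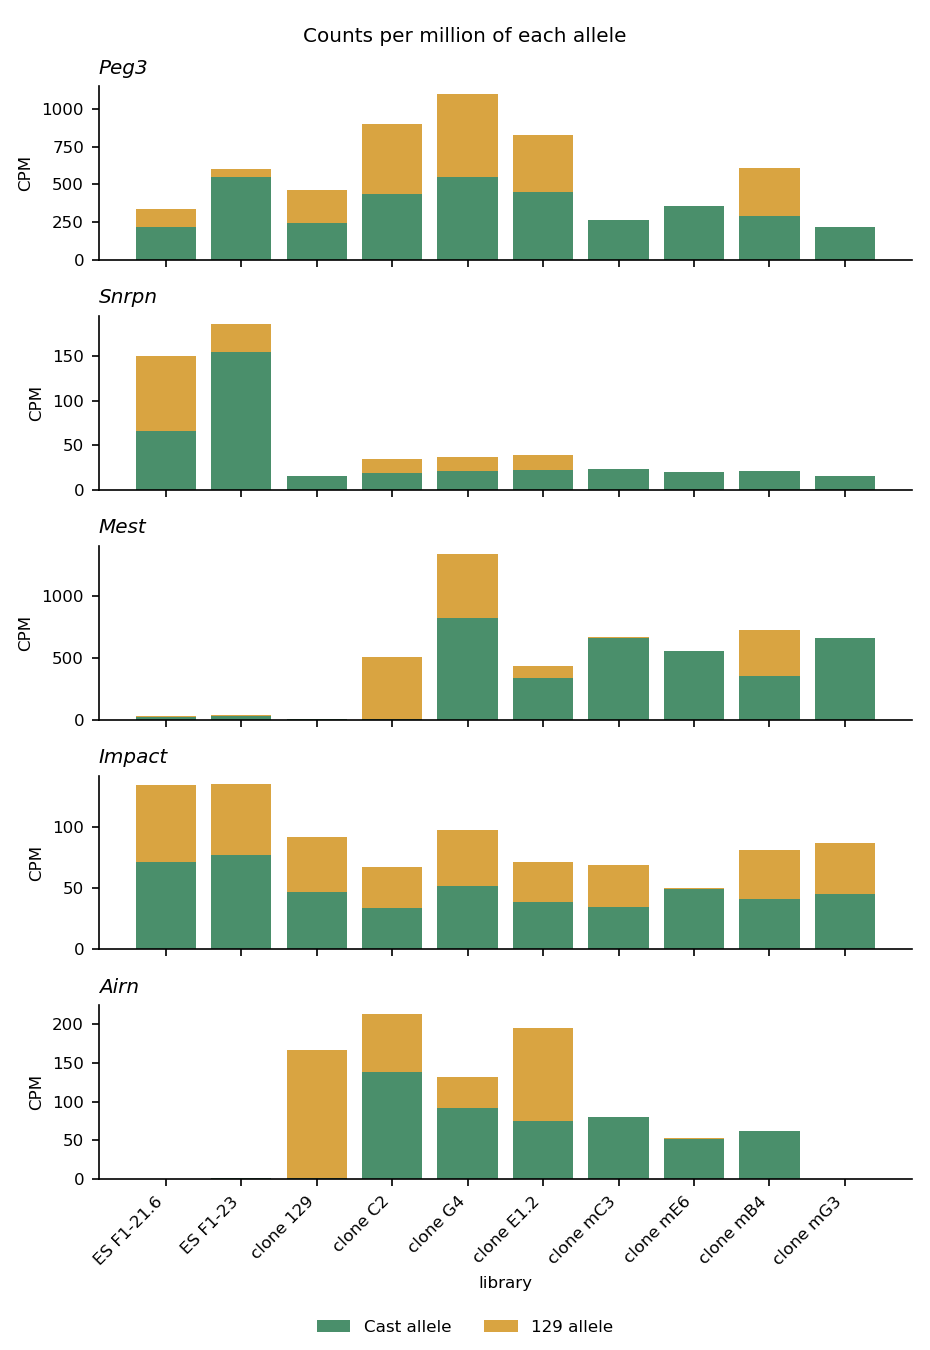
CPM (vertical axis, from 0) of the Cast allele (green) and the 129 allele (ochre) of each gene, stacked, in the 10 libraries (horizontal axis). The Cast part of Snrpn stays between 15.6 and 23.1 CPM in the clones, and the bars of Mest in clone 129 and Airn in mG3 are close to 0.

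Per transcript length the order of levels over the 8 clones was Mest, Impact, Peg3, Snrpn and Airn. The median FPKM was 671, 36.9, 30.1, 19.2 and 10.4. The ranges of neighbours in this order overlapped in every case: 1.65 to 1351 for Mest, 22.7 to 45.1 for Impact, 13.3 to 66.0 for Peg3, 12.96 to 35.4 for Snrpn and 0.000976 to 21.8 for Airn.

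The mean 129 share was higher in the XX than in the XY clones for each gene, but the groups of 4 overlapped for all 5, and 5.43% of autosomal genes had groups that did not overlap. For Airn the overlap came from mG3 alone, whose share rests on 64 counts. The mean and tests of Airn below include that clone. The means were 48.7% ± 2.59 against 12.99% ± 25.9 for Peg3 and 32.9% ± 21.9 against 0.219% ± 0.301 for Snrpn (SD, n = 4 clones each). For Mest they were 51.6% ± 33.8 against 13.3% ± 25.7, for Impact 47.6% ± 1.53 against 36.9% ± 24.6, and for Airn 56.6% ± 31.3 against 10.4% ± 20.1. The exact two-sided permutation p was 0.143, 0.0571, 0.114, 0.886 and 0.0857 for Peg3, Snrpn, Mest, Impact and Airn. The smallest p that 4 against 4 clones can give is 0.0286, and after Benjamini-Hochberg adjustment over 11917 genes the smallest exact p of any gene was 0.526, so no gene could pass.

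The same comparison was fitted to the allele counts of all autosomal genes with edgeR's quasi-likelihood test, which called 3 of 12108 genes (0.0248%; 1021, or 8.43%, at an unadjusted p under 0.05). None of the 5 genes passed, while 3 were below an unadjusted p of 0.05 in edgeR and 4 in limma, which passed none of them either. The log2 difference in the ratio of 129 to Cast was 9.52 ± 2.80 (SE) for Peg3, with an edgeR adjusted p of 0.466, and 7.47 ± 2.004 for Snrpn, with 0.417. It was 7.54 ± 2.58 for Airn (edgeR adjusted p 0.541), 7.45 ± 3.34 for Mest (0.601) and 0.89 ± 1.71 for Impact (0.923). A single clone decided the call for 2 of them. Without mB4 the difference of Peg3 was 11.40, with an edgeR adjusted p of 0.00239, and without clone 129 that of Snrpn was 8.36, with 0.0239. Without mE6 the difference of Impact was -0.09.

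Against the parent ES line, the XX clones differed in allele use at 1613 autosomal genes (13.3%) and the XY clones at 1209 (9.99%), by the same edgeR test, and none of the 5 genes passed in either line. At an unadjusted p under 0.05, none of the 5 was found in the XX line and 1, Snrpn, in the XY line, where 27.3% and 24.4% of all genes were, and limma passed none of the 5. Each ES line has 1 library, which was assumed to vary like the clones. The XX clones and their ES line differ in library name prefix, so cell type and library set cannot be told apart in that line. The same holds for the test below that sets the lines against each other. The log2 difference in the ratio of 129 to Cast between XY clones and the XY ES line was -6.26 ± 3.64 for Peg3 (edgeR adjusted p 0.355), -6.44 ± 2.74 for Snrpn (0.200) and -4.56 ± 4.30 for Mest (0.603). Without mB4 it was -8.14 for Peg3, with an edgeR adjusted p of 0.00518, and without clone 129, which then no longer added to the estimate of spread, it was -6.38 for Snrpn, with 0.00746. For Impact and Airn it was -0.63 ± 2.56 and -0.82 ± 11.12. In the XX line the differences ran from -1.67 ± 2.29 for Snrpn to 0.78 ± 2.93 for Peg3. A test of whether the step from ES to NPC differed between the lines passed none of the 5 in edgeR or limma. It passed 208 genes (1.72%) in edgeR and 365 (3.01%) in limma. None of the 5 was below an unadjusted p of 0.05 in edgeR or limma, where 12.7% and 14.0% of all genes were.

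Summed over alleles, 2 of the 5 genes were higher in NPC than in ES cells and 2 lower, in an edgeR comparison of 8 clones with 2 ES lines that called 63.0% of all genes (33.3% higher, 29.7% lower). In bulk RNA, fewer cells that express a gene and less RNA per cell cannot be told apart. Snrpn fell by 2.79 on the log2 scale (SE 0.29, edgeR adjusted p 4.4e-05), from 151 and 186 CPM in the ES lines to at most 38.7 CPM in the clones. Impact fell by 0.81 (SE 0.20, edgeR adjusted p 0.00648), from 135 and 136 CPM to at most 97.9 CPM. Airn rose by 6.30 (SE 1.61, edgeR adjusted p 0.00738) from 0.975 and 1.11 CPM, although mG3, at 0.733 CPM, lay below the ES lines. Mest rose by 4.25 (SE 1.60, edgeR adjusted p 0.0424) from 30.5 and 33.7 CPM, although clone 129, at 2.68 CPM, lay below them. Peg3 differed by 0.07 (SE 0.53, edgeR adjusted p 0.919), with 336 and 602 CPM in the ES lines.

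Some of these calls ended under an alternative. Without the XX ES line the adjusted p of Airn was 0.0711, with the ES lines and XY clones alone it was 0.137, and without the XY ES line that of Impact was 0.0880, all in edgeR. The Mest call ended in 11 of 16 alternatives, among them limma on FPKM with 2 pseudocounts (adjusted p 0.157 and 0.180) and leaving out any library but clone 129 (edgeR adjusted p 0.0538 to 0.178). The summed level of 6 fibroblast markers was 44.3 and 90.0 CPM in the ES lines, which shared their dishes with feeder cells, and at most 5.92 CPM in the clones other than E1.2. The part of feeder RNA in the ES values of the 5 genes was not tested.

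Between XX and XY clones edgeR called 175 of 13591 genes for total level (1.29%) and none of the 5, of which 2 were below an unadjusted p of 0.05 (23.9% of all genes). DESeq2 passed 1 of the 5, Peg3, and 14.3% of all genes, and limma on FPKM passed none of the 5. The log2 difference of XX over XY was 1.17 ± 0.37 for Peg3 (edgeR adjusted p 0.123, DESeq2 0.0162) and 0.65 ± 0.27 for Snrpn (edgeR 0.201). Without clone 129 that of Snrpn was 0.89, with an edgeR adjusted p of 0.0347. It was 1.85 ± 0.96 for Airn (edgeR 0.280), 0.18 ± 0.20 for Impact (0.608) and -0.20 ± 1.12 for Mest (0.928).

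Imprinted genes lie in clusters, so the neighbours of each gene were read in the same clones. Usp29, a paternally expressed gene that starts beside Peg3 and runs the opposite way, differed from Peg3 by 1.90 percentage points of 129 share on average over the 8 clones. It had 0.264%, 1.12% and 0.303% in mC3, mE6 and mG3, and 45.2% in mB4. Zim3, in the same cluster, differed by 6.62 points, with 30 to 215 counts per clone. Zim1, known as maternally expressed, ran from 8.71% in mE6 to 62.6% in clone 129 and was monoallelic only in mE6 among the 8 clones, for Cast. Apeg3, which shares 7833 bases with Peg3, had nearly the same shares (0.0272 points apart), which cannot be told apart from shared reads.

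In the cluster of Snrpn the genes did not move as a block. Peg12, a paternally expressed gene some way from Snrpn, had 0.276% in clone 129 and 0.0785% in mE6, where Snrpn also used Cast alone. In mC3 and mB4, however, Peg12 had 45.9% and 44.0%, with 39705 and 19921 counts, while Snrpn had 0.670% and 0.0673%. Ndn, which encodes the neuronal protein necdin, had 42.9% in mC3 and 6.18% in mB4. Mkrn3 was at 41.5% to 59.6% in every clone, and Ube3a, a ubiquitin ligase known as maternally expressed in neurons, at 51.1% to 55.9%. Peg12 and Snrpn therefore differed in allele use in 2 XY clones, by up to 45.3 points.

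Copg2, a coat protein gene next to Mest that overlaps it by 56 bases and is known as maternally expressed, was read beside it. Its 129 share was 28.8% in C2, where Mest was at 99.7%, and 66.1%, 62.7% and 66.1% in mC3, mE6 and mG3, where Mest was at 0.110% to 1.10%. In mB4 it was 43.4%, and in the XY ES line, where Mest was called for Cast at 13.1%, it was 41.7%. Copg2 had 572 to 1400 counts per clone and was monoallelic in none.

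Igf2r, the receptor for insulin-like growth factor 2 that Airn is known to silence on its own chromosome, had its highest level in the clone with almost no Airn. Igf2r was at 253 CPM in mG3 and at 45.4 to 106 CPM in the other 7 clones, while in the ES lines, where Airn was at about 1 CPM, it was at 90.9 and 90.4. In mG3 its 129 share was 35.8%, with 163 CPM from Cast and 90.7 CPM from 129. In mC3, mE6 and mB4, where Airn came from Cast, the Igf2r share was 68.9%, 77.0% and 71.1%. In clone 129, where Airn came from the 129 allele, the Igf2r share was 73.5%. Since the rows overlap, an Igf2r share also holds any Airn reads counted there, and the part of such reads was not tested.

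**Figure D3:**
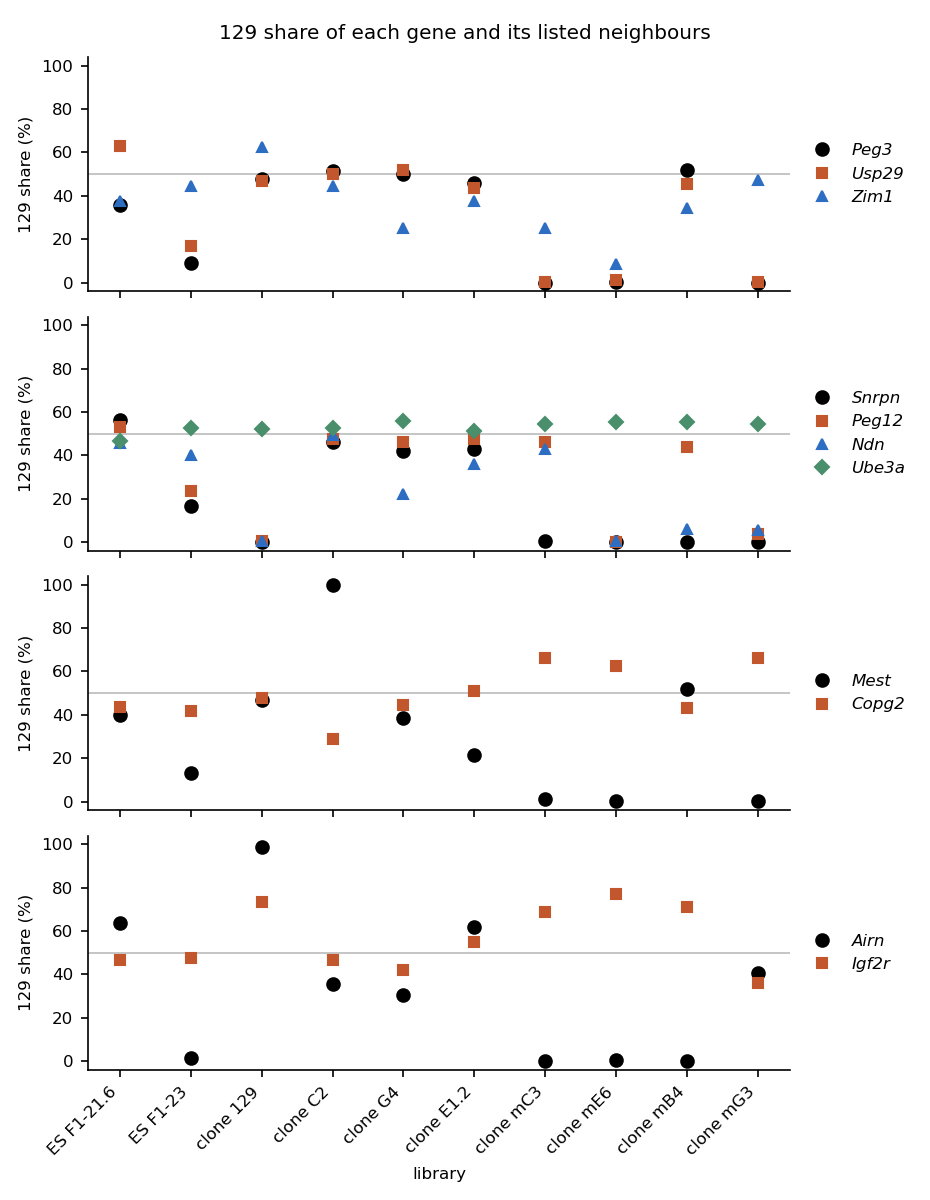
The 129 share (percent, vertical axis) of Peg3, Snrpn, Mest and Airn (black) and of listed neighbours (coloured symbols) in the 10 libraries (horizontal axis). Usp29 follows Peg3, Peg12 leaves Snrpn in mC3 and mB4, and Copg2 lies at 66.1%, 62.7% and 66.1% in mC3, mE6 and mG3, where Mest is near 0.

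Beyond the listed imprinted genes, most genes around the 5 were not monoallelic in the same clones. Among other genes within 1 Mb with at least 100 counts, the median 129 share around Peg3 lay between 43.2% and 53.1% over the 10 libraries. It lay between 49.6% and 53.6% around Mest, 47.0% and 52.3% around Impact and 48.6% and 51.5% around Airn. Around Snrpn only 3 such genes were read, with medians of 46.7% to 54.3%. The nearest of these, D7Ertd715e, was monoallelic for Cast in the 5 clones in which Snrpn was, at 0.0480% to 1.15%. Its row also carries the name Snord64. It was on neither list of imprinted genes, and whether it is itself imprinted was not tested. Elsewhere monoallelic genes were few: 2 around Peg3 in C2 and 1 in mC3, 1 around Mest in clone 129, 1 around Impact in each of G4, E1.2 and mB4, and none around Airn. In mE6, where all 5 genes used Cast alone, these medians were 49.99%, 52.0%, 51.8%, 48.9% and 49.5% around Peg3, Snrpn, Mest, Impact and Airn. Osbpl1a, the nearest listed neighbour of Impact, had 48.9% in mE6 with 11380 counts.

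**Figure D4:**
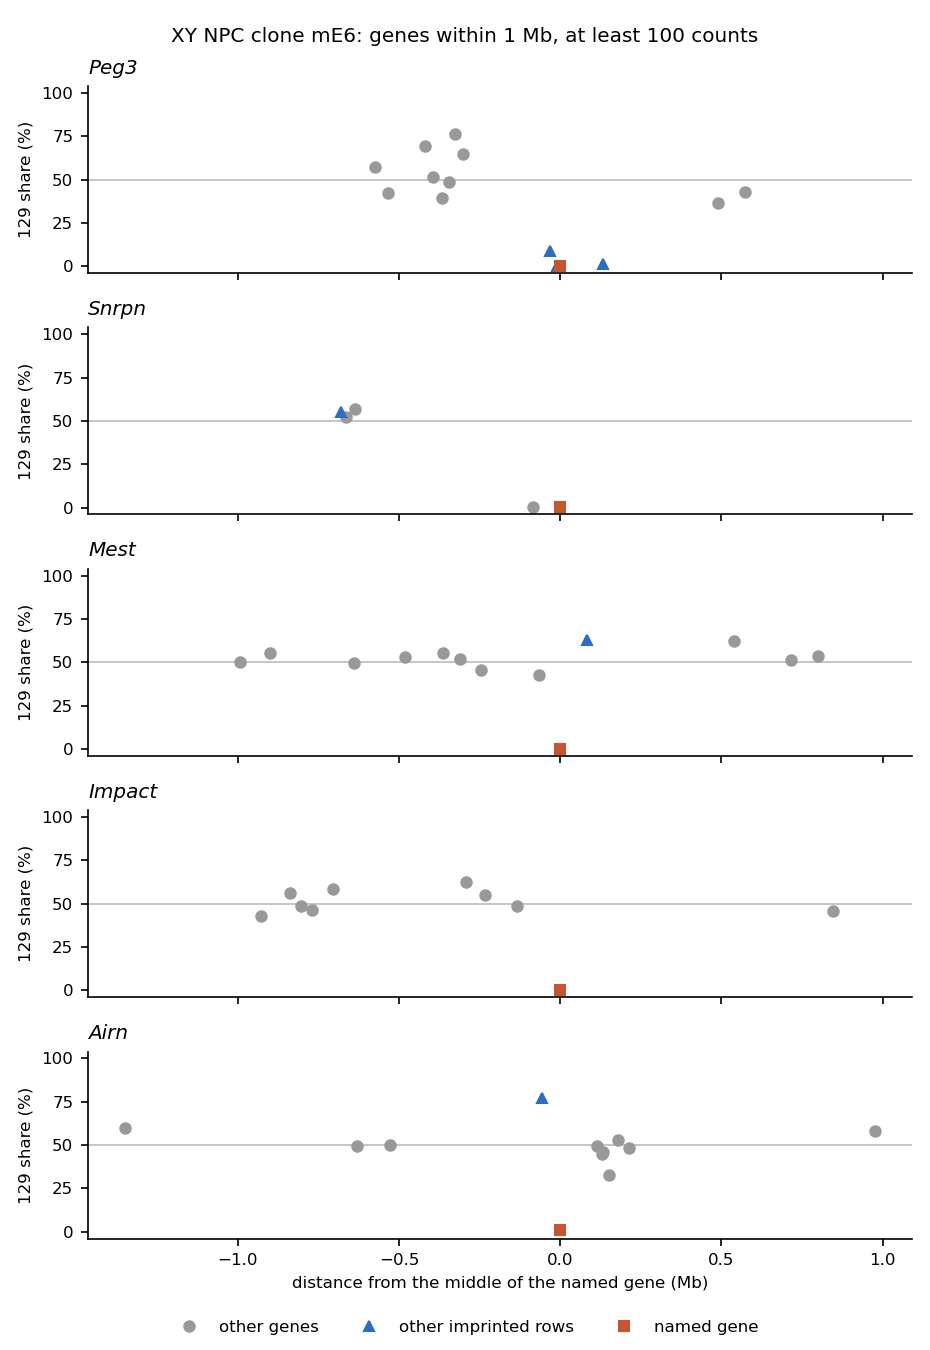
The 129 share (percent, vertical axis) of every gene with at least 100 counts within 1 Mb of either end of each gene in clone mE6, against the distance between gene middles (Mb, horizontal axis). The named genes (squares) lie at 0.0248% to 0.728%, the grey gene beside Snrpn (D7Ertd715e) lies at 0.0480%, and the other grey genes lie between 32.8% and 76.4%.

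The genes whose 129 shares were most like those of a member over the 8 clones were listed by the mean absolute difference, among 11251 or 11252 genes with at least 20 counts in all 8, leaving out rows that overlap the member, such as Apeg3 for Peg3 and Mas1 for Airn. For Peg3 these were Usp29 (1.90 points), Zim3 (6.62) and Gramd2 on chromosome 9 (9.56). For Snrpn they were the transcript D7Ertd715e next to it (0.674), Herc6 (6.77) and Lass4 (8.06). For Mest they were Apeg3 and Peg3 (10.7 each) and Usp29 (11.8), so the closest genes lay on another chromosome. For Impact, with a single clone that differed, they were Abhd14a (2.41), Ust (3.25) and Umps (3.50), each at 0.429% to 0.637% in mE6 and between 38.9% and 53.6% in the other clones. For Airn they were Sgce (11.8), Vwa5b1 (12.95) and Peg10 (13.1), of which Sgce and Peg10 are paternally expressed neighbours on chromosome 6. Sgce was at 93.8% in clone 129 and Airn at 98.8%, while Peg10 was at 42.4% there. In G4 and mG3, Sgce was at 7.88% and 2.97% and Airn at 30.4% and 40.6%.

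The wider list held 37 other paternally expressed genes, of which 25 had a row and 19 had at least 20 counts in at least 6 clones. Of these 19, 10 were monoallelic in at least 1 clone and biallelic in at least 1 other, against 13.5% of all autosomal genes (1639 of 12108). The largest ranges of 129 share were those of Nap1l5, Sgce, Dlk1 and Plagl1. Nap1l5 went from 0.815% in mG3 and 1.83% in mC3 to 96.6% in G4, with 767 to 1910 counts in the clones that expressed it. Plagl1, a zinc finger gene, was at 0.365% in mB4 and at 44.8% to 73.9% in the other clones. In the XY line, clones mC3, mE6, mB4 and mG3 had 6, 7, 5 and 5 genes of this list monoallelic for Cast, and 0, 0, 0 and 1 for 129, of 20, 20, 21 and 19 testable. Clones 129, C2, G4 and E1.2 had 2, 0, 2 and 3 for Cast and 2, 0, 1 and 1 for 129, of 18, 19, 19 and 20 testable. Over all autosomal genes and clones, 3.52% of pairs were monoallelic for Cast and 3.27% for 129. In total level, 10 of 24 tested genes of the list rose from ES to NPC and 8 fell, where 33.3% and 29.7% of all genes did. The median log2 difference of the list was 0.61 against 0.11 over all genes. Peg12 rose by 5.10 on the log2 scale (SE 0.85, edgeR adjusted p 0.000691). Nap1l5 was at 0.0443 and 0.0141 CPM in the ES lines and at 7.79 to 25.9 CPM in the clones other than 129 and mE6. Zdbf2 was at 32.5 and 26.9 CPM in the ES lines and at most 0.239 CPM in the clones, and Cdh15 at 1.23 and 1.04 against at most 0.178 CPM.

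The genes that copy, protect or remove imprints were read last. Of 19 listed, 17 were measured, and 5 rose and 8 fell from ES to NPC, where 33.3% and 29.7% of all genes did. Their median log2 difference was -0.44 against 0.11 over all genes. Dnmt3b, a DNA methyltransferase for new marks, fell by 5.79 (SE 0.28, edgeR adjusted p 1.0e-06), and Zfp57, the imprint guard, fell by 4.08 (SE 0.70, edgeR adjusted p 0.000817). Tet1, which oxidises methylated DNA, fell by 3.52 (SE 0.096, edgeR adjusted p 1.1e-07), while Tet3, of the same family, rose by 2.52 (SE 0.20, edgeR adjusted p 9.5e-06). Zfp57 was at 27.5 and 17.3 CPM in the ES lines and at 0.186 CPM in mE6, 0.263 CPM in mG3, 0.820 CPM in mB4, 1.59 CPM in mC3 and 0.795 to 4.63 CPM in the XX clones. Between XX and XY clones edgeR passed 0 of the 17, with 6 below an unadjusted p of 0.05, where 23.9% of all genes were. DESeq2 passed 2 of the 17, against 14.3% of all genes, and limma on FPKM none. For the other paternally expressed genes edgeR passed 0 of 20 there, with 7 below an unadjusted p of 0.05, while DESeq2 passed 4 and limma none.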

How the data were processed

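RNA of 2 ES lines and 8 NPC clones was read from 1 table deposited by the authors, with whole counts per gene and library, the fraction of them from the 129 allele (printed in percent as the 129 share) and FPKM. Per the submitters' processing notes, TopHat 1.4.0, Cufflinks 1.3.0, SAMtools and the build mm9 were used, with no step assigned to a column. Counting by strand and the variant list are not given in the sources used here. Nor is it stated whether a read over several variants counted once. If it counted more often, the intervals are too narrow and the binomial p-values too small. Intervals cover counting error only. The 2 libraries labelled as repeats (clones C2 and mC3) are not analysed here. Clones are cultures of 1 line each, and p-values of the group comparisons measure the spread between clones. Those of the binomial test behind the monoallelic calls cover counting error within 1 library only. In allele contrasts with an ES line, the spread of that line was assumed.

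From the deposited counts and fractions, 129 and Cast counts were rebuilt (whole to within 0.01 for 100.0% of autosomal values). Allele use was fitted with edgeR 4.0.16 (quasi-likelihood, R 4.3.3), with a term per library and an allele term per group, over genes with at least 20 counts in at least 6 of 8 clones. Totals were fitted with edgeR after TMM scaling and its filter on low counts, with the line as covariate for NPC against ES. Benjamini-Hochberg adjustment ran over all genes tested, and calls used 0.05. CPM are TMM-scaled. Alternatives used limma 3.58.1 on log2(FPKM + 1), log2(FPKM + 0.1) or log ratios with an offset of 0.5, DESeq2 1.42.0, other filters, and leaving out each library. Both fits were run on simulated data in which a changed gene had the same shift in all XX clones. Single clones that switch alleles within a group, as Peg3 in mB4, were not simulated.

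Named were the 5 genes, listed neighbours, up to 4 genes per list with the largest range or change, and the 3 genes most like each member. The members and lists were chosen with earlier results of these data known. The test of the lines against each other from ES to NPC, the minimum of 100 counts around the genes and the choice of start regions (within 20 bases of an annotated start, most CG) were chosen after seeing the data, as was the naming of Abhd14a, Ust and Umps shares in mE6, of Zfp57 levels and of single neighbours in single clones. Promoter windows came from RefSeq.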

Additional observations from a re-analysis of the deposited data

Results flagged for a closer look

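In groups of 4 clones, a clone far from its group (Dixon's test, 95% level) was found in 8 of 20 sets of values of the 5 genes. For independent, normally distributed values the test marks about 1 in 20 sets. The shares cluster at few values, and the sets of share and level of a gene are not independent. The count of 8 therefore cannot be read against that rate. In the XY clones, mB4 stood apart for Peg3 with a 129 share of 51.9% and for Mest with 51.8%. Clone mE6 stood apart for Impact with 0.0248%, and mC3 for Snrpn with 0.670%, a share at which all 4 XY clones still used Cast alone. Clone mG3 stood apart for Airn, with a 129 share of 40.6% and a level of -0.45 log2 CPM. In the XX clones, clone 129 stood apart for Snrpn, with a share of 0.0930% and a level of 3.99 log2 CPM.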

How the results depend on the processing

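No paired analysis was possible because the clones carry names, not numbers shared between XX and XY or between NPC and ES libraries. The number of genes differing in total level between XX and XY clones was 175 in edgeR, 1945 in DESeq2, and 468 and 428 in limma on FPKM with a pseudocount of 1 and 0.1. Leaving out 1 library at a time gave 7 to 496 there, the highest without clone 129 and the lowest without mB4, 7032 to 9423 for totals of NPC against ES, and 1 to 9 for allele use between XX and XY clones. It gave 1362 to 1645 for allele use of XX clones against their ES line and 875 to 1277 for XY clones. The number of the 5 genes at the smallest exact permutation p of the share was 0 to 1 (Snrpn without clone 129, Peg3 without mB4).

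Directions turned only for differences that passed no test, mostly when 1 library was left out. So treated, Impact ran from -0.089 (without mE6) to 1.48 for allele use between XX and XY clones, from -1.21 to 0.36 (without mE6) against the XY ES line and from -1.54 (without mE6) to 15.1 points in mean share, and medians gave -0.93 points. Airn ran from -1.28 to 0.65 against the XX ES line (0.55 without C2, 0.65 without G4), was 0.45 there in limma, and ran from -2.24 to 0.11 (without mB4) against the XY ES line. Mest ran from -0.35 (without C2) to 1.87 against the XX ES line, and from -1.07 to 0.23 (without clone 129) for XX over XY total level. Peg3 totals of NPC against ES ran from -0.74 (without the XX ES line) to 1.31 (without the XY ES line), with -0.00095 without G4 and -0.13 without mB4, and were -0.72 with the ES lines and XY clones alone. The causes were not tested. The count of monoallelic calls was 17 in each alternative (a minimum of 100 counts, a major allele of 95%, no binomial test). Depth limits Airn in mG3 and the ES lines and Mest in clone 129. Each ES line has 1 library.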
